A study of Mus musculus with 30 samples.

Results

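A set of 10 genes used as markers of macrophages and of their activation states was followed here through TPA-induced inflammation of mouse skin: Emr1, Csf1r, Cd68, Cd163, Mrc1, Chi3l3, Retnla, Nos2, Msr1 and Cd14. They were chosen by name, and every probe set of the array whose gene symbol is 1 of these 10 was taken, under the older symbols that the annotation uses for Emr1 (now Adgre1) and Chi3l3 (now Chil3). This gave 16 probe sets for 10 genes, of 22121 gene symbols in the table, and all 16 passed the filter on low values. Whole shaved back skin came from female WT and D6-deficient mice of 129–C57BL/6 background aged 8 to 12 weeks. D6 (gene Ccbp2) is a receptor that binds and removes inflammatory chemokines, and the phorbol ester TPA was painted on the skin 3 times at 50 μM, 24 h apart. Skin was taken 1, 2, 4 or 6 days after the last application, and acetone-treated controls of each genotype stand as day 0, although the titles of those arrays say untreated. With 2 genotypes and 5 days there were 10 groups of 3 Affymetrix arrays, 30 in all, each array from another mouse.

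Macrophages enter inflamed skin as blood monocytes or are already resident there, and the growth factor receptor Csf1r and the adhesion receptor F4/80, the product of Emr1, are classical markers of the lineage. Their activation is often described between poles. Interferon-γ and bacterial products raise Nos2, the inducible nitric oxide synthase, in classically activated cells, whereas interleukin-4 and interleukin-13 act through the factor STAT6 to raise Retnla (Fizz1), Chi3l3 (Ym1) and the mannose receptor Mrc1 in alternatively activated cells. Cd163, the receptor for haemoglobin bound to haptoglobin, Msr1, a scavenger receptor for modified lipoproteins, Cd14, a co-receptor for lipopolysaccharide, and Cd68, a protein of late endosomes, are found on or in macrophages in several states. None of these genes is restricted to macrophages. Neutrophils also express Chi3l3 and Cd14, and eosinophils and Langerhans cells express Emr1, so that in whole skin a change in the number of cells and a change in RNA per cell cannot be told apart.

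All 10 genes were found in RefSeq's mouse gene table, and 5 of them (Cd68, Cd163, Mrc1, Chi3l3 and Retnla) had a promoter window in the reference sequences for build GRCm38.p6. The 250 bases before the annotated start are shown for Retnla and Chi3l3, both known targets of interleukin-4 whose levels took different courses here, and for Cd68, whose course differed between the genotypes. Capitals mark each match, on either strand, to 1 of 5 motifs: TGANTCA (the TPA response element bound by AP-1), TTCNNNNGAA (a STAT6-type site), TTCNNNGAA (a site of the type bound by other STAT factors), GAGGAA (a PU.1 core) and TTGCNNAA (part of a C/EBP site).
Retnla, chr16:48842359-48842608, plus strand: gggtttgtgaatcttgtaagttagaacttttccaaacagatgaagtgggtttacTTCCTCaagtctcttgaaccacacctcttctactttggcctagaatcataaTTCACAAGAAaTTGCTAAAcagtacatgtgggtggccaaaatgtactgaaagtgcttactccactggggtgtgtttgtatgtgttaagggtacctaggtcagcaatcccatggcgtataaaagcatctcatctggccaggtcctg
Chi3l3, chr3:106167565-106167814, minus strand: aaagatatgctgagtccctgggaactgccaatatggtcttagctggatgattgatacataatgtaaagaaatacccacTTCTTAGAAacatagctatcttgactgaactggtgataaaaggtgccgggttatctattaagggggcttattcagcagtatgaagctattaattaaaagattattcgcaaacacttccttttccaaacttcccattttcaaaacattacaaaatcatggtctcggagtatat
Cd68, chr11:69666171-69666420, minus strand: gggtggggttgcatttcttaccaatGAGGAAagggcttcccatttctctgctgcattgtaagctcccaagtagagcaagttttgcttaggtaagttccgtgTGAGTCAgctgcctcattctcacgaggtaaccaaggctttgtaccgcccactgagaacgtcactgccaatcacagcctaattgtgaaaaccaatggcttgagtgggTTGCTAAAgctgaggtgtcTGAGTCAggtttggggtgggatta
The Retnla window held the STAT6-type letters with their first base 145 bases before the start, a C/EBP match at 134 bases and a PU.1 match at 196 bases. The Chi3l3 window held none of the STAT6-type letters and 1 match to the shorter STAT motif, at 172 bases. The Cd68 window held the TPA response element at 149 and again at 24 bases before the start, a PU.1 match at 225 bases and a C/EBP match at 43 bases. Of 32851 promoter windows of this length, 5.85% held the STAT6-type motif, 7.02% the shorter STAT motif, 6.75% the TPA response element, 23.3% the PU.1 core and 9.56% the C/EBP motif. The windows of Mrc1 and Cd163 held no match but PU.1 letters, 3 in Mrc1. A match is a run of letters and was not tested as a binding site.

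The deposited values were RMA intensities, used here as log2, and 36029 probe sets were tested. The keratins Krt5 and Krt14 and the collagen Col1a1 were at 11.01 or above on every array, whereas the differentiation keratin Krt10 ran down to 7.55 and Krt1 to 6.29. Of 3 Ccbp2 probe sets, D6-deficient arrays (3.30 to 3.86) lay below all WT arrays (4.15 to 5.76) on 1, were lower with overlap on another (-0.69 over all days, adjusted p = 5.2e-05), and did not pass on the brightest, at 6.59 to 8.09 against 6.69 to 8.54 (-0.07, adjusted p = 0.80). Which of these probe sets lie in the deleted part was not given in the sources used here. Array medians ran from 5.64 to 5.80, and no array was left out. The hybridization controls divided the arrays, at the largest gap (1.10 of a range of 4.45), into sets of 17 and 13, each with arrays of both genotypes. All D6-deficient arrays of day 6 were in the larger set, and every other group had arrays in both. With 3 arrays a group the number of arrays limits the precision, and an exact permutation test of 3 against 3 cannot give a p under 0.1, so p values come from limma fitted to all arrays and adjusted over all 36029 probe sets of a contrast.

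The 10 genes did not move together after TPA. Chi3l3 rose early and most, Cd68, Cd14, Msr1, Cd163 and Mrc1 were raised on day 4 in both genotypes, Csf1r and Emr1 were lowered on day 4, and Retnla, the other textbook product of alternative activation, passed the test on no day. In WT skin 2 of the 16 probe sets were higher and 5 lower on day 1 than on day 0, at an adjusted p under 0.05, against 11.4% and 12.7% of all probe sets tested. On day 2 the counts were 3 higher and 1 lower (11.0% and 15.0% of all), on day 4 they were 10 and 4 (17.3% and 21.8%), and on day 6 they were 3 and 5 (10.2% and 11.9%). The share of member probe sets that rose on day 4 thus lay above the background, and the shares on day 2 lay near it. In D6-deficient skin 4 were higher and 2 lower on day 1 (18.2% and 18.1% of all), 10 higher on day 4 and 4 lower (18.8% and 22.4%), and 3 higher and 1 lower on day 6 (16.0% and 15.7%). On day 2 limma called 10 of the 16 higher (17.5% of all) and 0 lower (20.6% of all), with 11 at an unadjusted p under 0.05 in either direction and 10 called by the methods' t-test after adjustment. The median difference of the 16 was 0.87 on day 4 in WT and 1.29 in D6-deficient skin on the log2 scale, where the median of all probe sets was 0.01 in each. Several of the 16 measure the same gene and are not independent of each other.

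**Figure D1:**
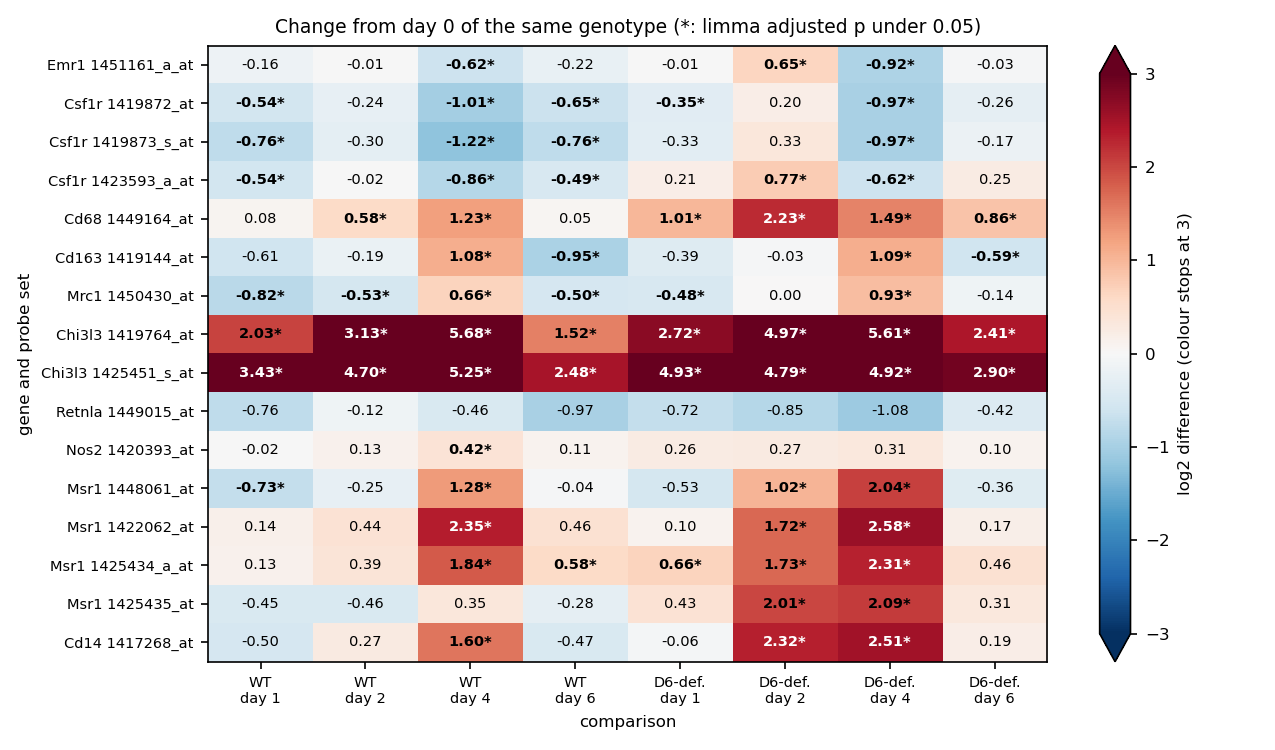
Change from day 0 on the log2 scale for the 16 probe sets (rows) on 4 days in WT and 4 days in D6-deficient skin (columns); each cell is the difference of 2 group means of 3 arrays, and bold type with an asterisk marks an adjusted p under 0.05. Both Chi3l3 rows are red throughout, the Csf1r rows are blue on day 4, and the Retnla row has no asterisk.

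Emr1, which encodes the adhesion receptor F4/80, was lower on day 4 than on day 0 in both genotypes. In WT skin its log2 level was 10.09, 10.06 and 9.90 on day 0 and 9.23, 9.58 and 9.37 on day 4, a difference of -0.62 (SE 0.20, adjusted p = 0.016). In D6-deficient skin it was 9.43, 9.81 and 9.60 on day 0 and 8.44, 8.83 and 8.80 on day 4, a difference of -0.92 (SE 0.20, adjusted p = 6.1e-04). The day 4 arrays lay below the day 0 arrays in each genotype, without overlap. On day 2 the D6-deficient arrays read 10.51, 10.09 and 10.19, above all day 0 arrays of that genotype (0.65, SE 0.20, adjusted p = 0.012), and the WT arrays read 9.97, 9.83 and 10.23, overlapping theirs (-0.01, adjusted p = 0.98). The difference between the 2 changes, 0.66 (SE 0.28), did not pass (adjusted p = 0.21). The WT decrease on day 4 was lost without WT day 0 replicate 1 (adjusted p = 0.050) or WT day 4 replicate 1 (0.068), and the D6-deficient increase on day 2 without D6-deficient day 0 replicate 1 (0.057) or day 2 replicate 1 (0.068). In the order of the 10 group means D6-deficient day 2 was highest and D6-deficient day 4 lowest, and 7 of the 9 neighbouring pairs in that order had overlapping arrays. Over all days Emr1 was 0.26 lower in the mean of D6-deficient skin (adjusted p = 0.089), which passed without D6-deficient day 6 replicate 3 (0.013).

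Csf1r, the receptor for the macrophage growth factors Csf1 and Il34, had 3 probe sets, and all of them were lower on day 4 in both genotypes. On the brightest, WT arrays read 13.12, 13.20 and 13.03 on day 0 and 11.81, 12.46 and 12.04 on day 4 (-1.01, SE 0.14, adjusted p = 2.8e-06), a 2.01-fold decrease. D6-deficient arrays read 12.64, 12.91 and 12.86 on day 0 and 11.85, 11.76 and 11.88 on day 4 (-0.97, SE 0.14, adjusted p = 3.4e-06). No day 4 array reached a day 0 array of its genotype. In WT skin all 3 probe sets were also lower on day 1 (-0.54, -0.76 and -0.54) and on day 6 (-0.65, -0.76 and -0.49). The third of these day 6 decreases, that of 1423593_a_at, was lost without WT day 0 replicate 2 (adjusted p = 0.088), WT day 6 replicate 2 (0.099) or WT day 6 replicate 3 (0.056). In D6-deficient skin the brightest probe set alone passed on day 1 (-0.35, SE 0.14, adjusted p = 0.047), a call that was lost without any 1 of 20 arrays, with an adjusted p up to 0.21, and on day 6 it passed only without D6-deficient day 6 replicate 3 (0.020). On day 2 the brightest probe set read 12.86, 12.96 and 12.81 in WT skin, below every WT day 0 array, and 13.01, 13.01 and 12.98 in D6-deficient skin, above every D6-deficient day 0 array. Neither change passed (-0.24 and 0.20, adjusted p = 0.21 and 0.27), nor did the difference between them (0.44, SE 0.19, adjusted p = 0.23). When the probe sets were averaged, the D6-deficient increase (limma adjusted p = 0.013) and the difference between the changes passed. The methods' t-test after adjustment also called that difference. The third probe set, 1423593_a_at, rose on day 2 in D6-deficient skin (0.77, SE 0.15, adjusted p = 2.1e-04), and on day 6 in that genotype it passed only without D6-deficient day 6 replicate 2 (0.030). Over the 10 group means the brightest probe set of Csf1r and that of Emr1 correlated at r = 0.90, a description over means that share the same arrays.

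**Figure D2:**
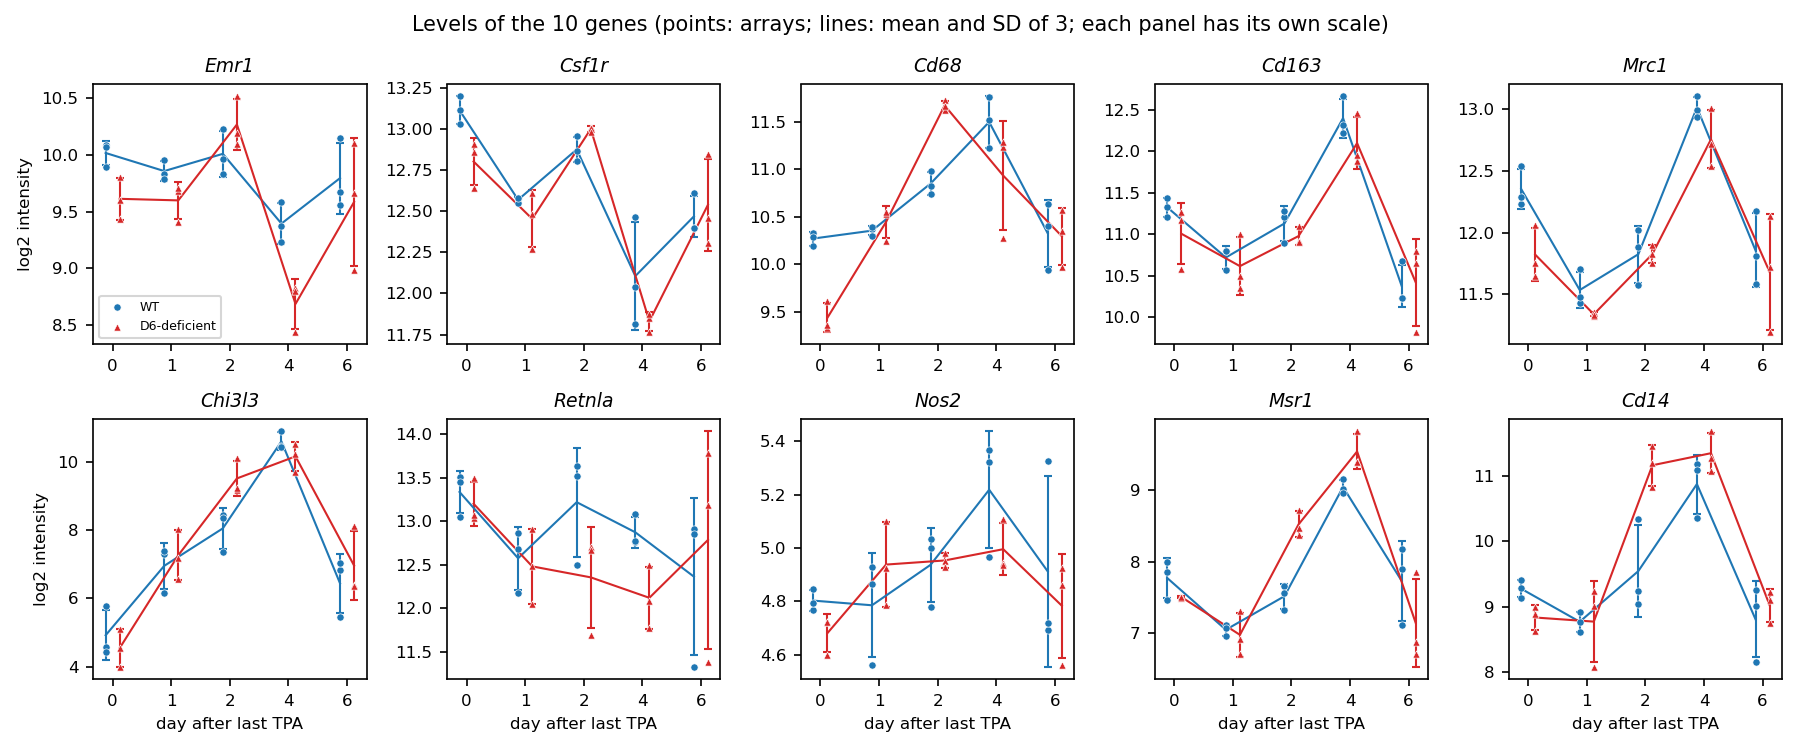
Log2 intensity (vertical axes, each gene on its own scale) by day after the last TPA application (horizontal axes, day 0 being the acetone controls) for the quoted probe set of each of the 10 genes; circles are WT arrays, triangles D6-deficient arrays, and lines with bars the mean and SD of 3. Emr1 and Csf1r are lowest on day 4, Chi3l3, Cd163, Mrc1, Msr1 and Cd14 are highest on that day, and Cd68 in D6-deficient skin is highest on day 2.

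Cd68, which encodes a glycoprotein of late endosomes and lysosomes, reached its highest mean earlier in D6-deficient than in WT skin. WT arrays read 10.33, 10.29 and 10.19 on day 0, 10.37, 10.30 and 10.39 on day 1, 10.83, 10.98 and 10.74 on day 2, 11.22, 11.52 and 11.76 on day 4, and 10.63, 10.40 and 9.94 on day 6. D6-deficient arrays read 9.33, 9.62 and 9.37 on day 0, 10.25, 10.53 and 10.55 on day 1, 11.62, 11.72 and 11.66 on day 2, 10.27, 11.23 and 11.29 on day 4, and 10.35, 9.97 and 10.57 on day 6. The WT means were highest on day 4 (11.50 ± 0.27, SD of 3 arrays) and the D6-deficient means on day 2 (11.67 ± 0.05), and every D6-deficient array after TPA lay above that genotype's day 0 arrays. In D6-deficient skin Cd68 was raised on all 4 days, by 1.01 on day 1 (SE 0.20, adjusted p = 4.8e-04), 2.23 on day 2 (4.70-fold, adjusted p = 1.3e-08), 1.49 on day 4 (adjusted p = 2.6e-06) and 0.86 on day 6 (adjusted p = 0.0025). In WT skin it was raised on day 4 by 1.23 (SE 0.20, adjusted p = 4.2e-05) and on day 2 by 0.58 (adjusted p = 0.038), the latter a call that was lost without any of the 6 arrays compared (adjusted p from 0.052 to 0.13). Days 1 and 6 in WT skin gave 0.08 and 0.05 (adjusted p = 0.82 and 0.89). The means on those 2 days were close, 10.45 and 10.30 in D6-deficient and 10.35 and 10.32 in WT skin. On day 0 they were 9.44 and 10.27, so the D6-deficient changes to days 1 and 6 start from a lower level. Neither of these changes passed as different between the genotypes.

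Among the genes linked to alternative activation, Cd163 and Mrc1 shared a course: means below day 0 on day 1, the highest mean on day 4, and means below day 0 again on day 6. Mrc1, the mannose receptor, read 12.54, 12.23 and 12.29 on day 0, 11.70, 11.43 and 11.48 on day 1 and 12.998, 12.94 and 13.11 on day 4 in WT skin. The day 1 arrays lay below all day 0 arrays (-0.82, SE 0.18, adjusted p = 0.0018) and the day 4 arrays above them (0.66, SE 0.18, adjusted p = 0.0052). In D6-deficient skin Mrc1 read 11.65, 12.06 and 11.76 on day 0, 11.35, 11.33 and 11.34 on day 1 and 13.01, 12.54 and 12.72 on day 4. Here too day 1 lay below day 0 (-0.48, SE 0.18, adjusted p = 0.039) and day 4 above it (0.93, SE 0.18, adjusted p = 1.9e-04), a 1.91-fold increase. The day 1 call in D6-deficient skin was lost without D6-deficient day 0 replicate 2 (adjusted p = 0.17) or replicate 3 (0.061), or without day 1 replicate 1 (0.077), 2 (0.086) or 3 (0.074). WT skin was lower on day 2 as well (-0.53, adjusted p = 0.032; lost without WT day 0 replicate 1 at 0.13 or 3 at 0.055, or WT day 2 replicate 2 at 0.060 or 3 at 0.16), and on day 6 (-0.50, adjusted p = 0.049; lost without any 1 of 23 arrays, up to 0.20). These same 3 calls were also lost when each array was centred on its median. In D6-deficient skin the Mrc1 arrays of day 6, from 11.19 to 12.13, overlapped those of day 0, from 11.65 to 12.06. Over all days the difference between the genotypes in Mrc1, -0.23 (adjusted p = 0.10), passed without D6-deficient day 6 replicate 1 (0.024).

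Cd163, the scavenger receptor for haemoglobin, read 11.44, 11.33 and 11.20 on day 0 and 12.22, 12.32 and 12.67 on day 4 in WT skin, an increase of 1.08 (SE 0.22, adjusted p = 4.6e-04). In D6-deficient skin it read 10.58, 11.17 and 11.27 on day 0 and 12.46, 11.89 and 11.95 on day 4, an increase of 1.09 (SE 0.22, adjusted p = 3.4e-04). The day 4 arrays lay above the day 0 arrays in each genotype, and the difference between the 2 increases was 0.02 (SE 0.32, adjusted p = 0.99). On day 6 WT arrays read 10.67, 10.22 and 10.23, all below day 0 (-0.95, SE 0.22, adjusted p = 0.0036). The D6-deficient arrays of day 6 read 10.65, 9.81 and 10.79 and overlapped day 0 (-0.59, adjusted p = 0.047), a call that was lost without any 1 of 20 arrays, with an adjusted p up to 0.36. The decrease on day 1 in WT skin, -0.61, had an adjusted p of 0.051 and passed without any 1 of 7 arrays (0.021 to 0.050). In D6-deficient skin the day 1 value was -0.39 (limma adjusted p = 0.18), and its arrays, from 10.34 to 11.01, overlapped day 0. Over the 10 group means Cd163 and Mrc1 correlated at r = 0.92.

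Chi3l3, which encodes the chitinase-like lectin Ym1, had the largest change among the 10 genes on each of the 4 days in both genotypes. On the probe set that names Chi3l3 alone, WT arrays read 5.77, 4.57 and 4.43 on day 0, 7.31, 7.39 and 6.17 on day 1, 8.44, 8.34 and 7.37 on day 2, 10.47, 10.43 and 10.90 on day 4, and 6.83, 7.04 and 5.46 on day 6. D6-deficient arrays read 5.11, 3.99 and 4.55 on day 0, 6.57, 8.04 and 7.20 on day 1, 9.18, 9.25 and 10.12 on day 2, 10.24, 10.53 and 9.71 on day 4, and 6.41, 6.36 and 8.12 on day 6. Arrays of days 1, 2 and 4 lay above all day 0 arrays of their genotype, and day 4 had the highest mean in each. The change to day 4 was 5.68 in WT (SE 0.50, 51.1-fold, adjusted p = 5.7e-09) and 5.61 in D6-deficient skin (SE 0.50, 48.9-fold, adjusted p = 4.2e-09). On day 6 a residue of the increase was still there, 1.52 in WT (adjusted p = 0.031) and 2.41 in D6-deficient skin (adjusted p = 7.6e-04). The WT day 6 arrays overlapped day 0, and that call was lost without WT day 0 replicate 2 (adjusted p = 0.11) or 3 (0.12) or without WT day 6 replicate 1 (0.11) or 2 (0.17). The other probe set, 1425451_s_at, is shared with Chi3l4 (Ym2), whose sequence is closely related. It rose on every day in both genotypes and by more on day 1, by 3.43 in WT (10.8-fold) and 4.93 in D6-deficient skin (30.4-fold). From which of the 2 genes its signal comes cannot be told from this probe set. Chi3l4 also has a reading outside the 16 probe sets, given below with the other genes linked to alternative activation. Neutrophil markers moved with Chi3l3: 9 of 12 probe sets of that list were higher and 0 lower on day 4 in WT skin (75% higher, against 17.3% of all). In D6-deficient skin 10 were higher and 0 lower (83.3% higher, against 18.8%). The summed level of its 11 genes went from 10.02–12.23 on day 0 to 15.51–15.88 on day 4 in WT and from 11.51–13.90 to 15.83–15.84 in D6-deficient skin (log2 of the sum, range over 3 arrays). The part of these cells in the Chi3l3 signal was not tested.

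Retnla, which encodes the secreted resistin-like protein Fizz1, is the other classical product of alternative activation, and it passed on no day. WT arrays read 13.06, 13.51 and 13.45 on day 0, 12.17, 12.87 and 12.68 on day 1, 12.50, 13.64 and 13.53 on day 2, 12.77, 13.08 and 12.78 on day 4, and 12.91, 11.32 and 12.86 on day 6. D6-deficient arrays read 13.04, 13.50 and 13.07 on day 0, 12.05, 12.49 and 12.91 on day 1, 12.71, 12.67 and 11.69 on day 2, 12.50, 11.78 and 12.09 on day 4, and 13.18, 11.38 and 13.79 on day 6. All 8 differences from day 0 were below 0, from -0.12 in WT on day 2 to -1.08 in D6-deficient skin on day 4 (SE 0.46, adjusted p = 0.061). The D6-deficient arrays of days 1, 2 and 4 and the WT arrays of days 1 and 6 lay below every day 0 array of their genotype. The arrays of a group were far apart, with an SD up to 1.25 (D6-deficient day 6), and none of the 9 neighbouring pairs of group means was separated. The day 4 difference in D6-deficient skin passed without WT day 6 replicate 2 (0.039) or without D6-deficient day 6 replicate 2 (0.019) or 3 (0.039). When only the arrays of each contrast were fitted, the differences of days 1 and 4 in WT and of days 1, 2 and 4 in D6-deficient skin passed, all of them lower than day 0. Fat cells also express Retnla. Of 8 adipocyte probe sets 3 were lower and 0 higher on day 4 in WT skin (37.5% lower, against 21.8% of all). They were led by the hormones Retn (-1.61, adjusted p = 1.4e-04) and Adipoq (-1.29, adjusted p = 4.2e-05). In D6-deficient skin Retn and Adipoq gave -0.62 and -0.28 (adjusted p = 0.10 and 0.32). The summed adipocyte level went from 15.90–16.07 to 15.23–15.47 in WT and from 15.74–15.81 to 15.47–15.83 in D6-deficient skin. The part of fat cells in the Retnla signal was not tested.

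Nos2, the marker of classical activation among the 10 genes, was dim on every array, between 4.56 and 5.37, with a mean over all arrays at percentile 39.5 of the probe sets. In WT skin it read 4.85, 4.77 and 4.79 on day 0 and 5.32, 4.97 and 5.37 on day 4, all above day 0 (0.42, SE 0.14, 1.33-fold, adjusted p = 0.025). In D6-deficient skin it read 4.72, 4.72 and 4.60 on day 0 and 4.94, 4.93 and 5.11 on day 4 (0.31, SE 0.14, adjusted p = 0.085). The D6-deficient arrays of days 1, 2 and 4 lay above all day 0 arrays, and limma called none of these days (adjusted p = 0.17, 0.15 and 0.085), while the methods' t-test after adjustment called day 2 (0.022) and day 4 (0.046). The WT call on day 4 was lost without WT day 0 replicate 2 (adjusted p = 0.064) or 3 (0.058) or without WT day 4 replicate 1 (0.090) or 3 (0.11). The D6-deficient value of day 4 passed without WT day 6 replicate 1 (0.038), when each array was centred on its median (0.040) and with array weights (0.036).

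Msr1, the class A scavenger receptor, had 4 probe sets, and Cd14, the co-receptor for lipopolysaccharide, had 1. On the brightest Msr1 probe set WT arrays read 8.00, 7.85 and 7.46 on day 0, 7.66, 7.56 and 7.32 on day 2 and 9.02, 8.96 and 9.16 on day 4. D6-deficient arrays read 7.52, 7.48 and 7.50 on day 0, 8.72, 8.37 and 8.47 on day 2 and 9.83, 9.40 and 9.40 on day 4. WT skin overlapped day 0 on day 2 and lay above it on day 4 (1.28, SE 0.24, adjusted p = 1.9e-04), whereas D6-deficient skin lay above it on day 2 (1.02, SE 0.24, adjusted p = 0.0018) and on day 4 (2.04, SE 0.24, 4.12-fold, adjusted p = 3.7e-07). On day 6 the differences from day 0 were -0.04 in WT and -0.36 in D6-deficient skin (adjusted p = 0.93 and 0.27), and the latter passed without D6-deficient day 6 replicate 1 (0.020). The brightest probe set was lower on day 1 in WT skin (-0.73, adjusted p = 0.031), a call that was lost without WT day 0 replicate 1 (0.13) or 2 (0.085) or without WT day 1 replicate 1 (0.063), 2 (0.083) or 3 (0.069). In D6-deficient skin the day 1 value, -0.53 (adjusted p = 0.092), passed without D6-deficient day 6 replicate 1 (0.040).

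The other 3 probe sets of Msr1 differed from the brightest in size and, on day 1, mostly in direction. The exception in direction was 1425435_at in WT skin, with a mean of 4.71 on day 0 and 4.25 on day 1. In WT skin 1422062_at and 1425434_a_at gave 0.14 and 0.13 on day 1 (adjusted p = 0.70 and 0.71), where the brightest was lower, and that call was lost when the probe sets were averaged (-0.23, adjusted p = 0.44). In D6-deficient skin 1425434_a_at rose on day 1, where the brightest gave -0.53. On day 4 in WT skin 1422062_at rose by 2.35 (5.08-fold, adjusted p = 1.2e-08) and 1425434_a_at by 1.84 (adjusted p = 1.8e-07), while 1425435_at gave 0.35 (adjusted p = 0.26; 0.021 without WT day 0 replicate 1). In D6-deficient skin all 4 rose on days 2 and 4, by 1.02 to 2.01 on day 2 and by 2.04 to 2.58 on day 4. The probe set 1425435_at stood apart most. It read 5.37, 4.34 and 4.41 on day 0, 4.24, 4.23 and 4.25 on day 2 and 4.96, 4.99 and 5.20 on day 4 in WT skin, and 4.84, 4.19 and 3.83, then 6.31, 5.98 and 6.61, then 6.15, 6.49 and 6.48 in D6-deficient skin. Its D6-deficient arrays of days 2 and 4 lay above every WT array of any day. The probe set 1425434_a_at passed on day 6 in WT skin (0.58, adjusted p = 0.044, up to 0.29 without 1 of 5 arrays, of which WT day 0 replicate 3 gave the highest) and on day 1 in D6-deficient skin (0.66, adjusted p = 0.014; 0.077 without D6-deficient day 0 replicate 2 and 0.067 without day 1 replicate 2). Calls were gained without 1 array for 1422062_at on day 6 in WT (0.010 without WT day 6 replicate 3), for 1425434_a_at on day 2 in WT (0.050 without WT day 0 replicate 1) and on day 6 in D6-deficient skin (0.049 without WT day 0 replicate 3, 0.033 without D6-deficient day 6 replicate 3), and for 1425435_at on day 1 in D6-deficient skin (0.027 without D6-deficient day 0 replicate 1). Which transcripts of Msr1 the 4 probe sets measure was not given in the sources used here.

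**Figure D3:**
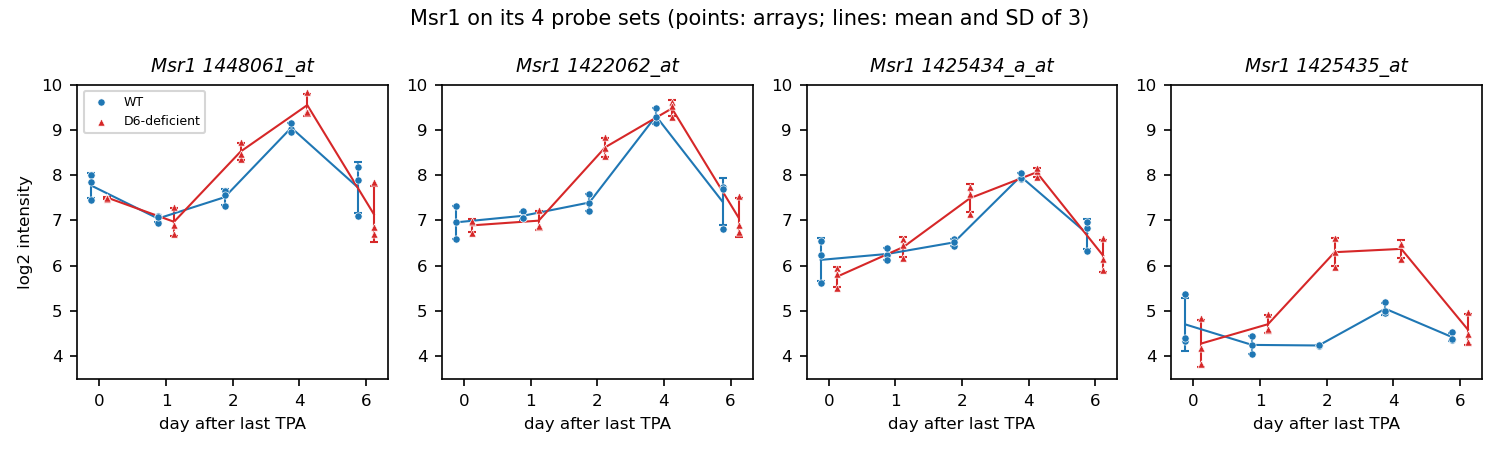
Log2 intensity (vertical axis, 1 scale for all panels) of the 4 Msr1 probe sets by day after the last TPA application (horizontal axis); circles are WT arrays, triangles D6-deficient arrays, and lines with bars the mean and SD of 3. On day 2 the D6-deficient arrays lie above the WT arrays in all 4 panels, and in the first and last panels they do so on day 4 as well.

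Cd14 read 9.29, 9.40 and 9.14 on day 0, 9.24, 10.35 and 9.05 on day 2 and 11.18, 10.36 and 11.08 on day 4 in WT skin. In D6-deficient skin it read 8.63, 8.9965 and 8.89 on day 0, 11.19, 11.46 and 10.83 on day 2 and 11.08, 11.68 and 11.28 on day 4. WT arrays of day 2 overlapped day 0, with replicate 2 above the other two, and the D6-deficient arrays of day 2 lay above all of day 0 and overlapped those of day 4. The change to day 2 was 0.27 in WT (SE 0.32, adjusted p = 0.58) and 2.32 in D6-deficient skin (SE 0.32, 5.01-fold, adjusted p = 3.2e-06). The change to day 4 was 1.60 in WT (3.03-fold, adjusted p = 2.8e-04) and 2.51 in D6-deficient skin (5.69-fold, adjusted p = 8.3e-07). On days 1 and 6 Cd14 passed in neither genotype. Each Cd14 call held when any 1 array was left out, while the difference between genotypes over all days, 0.37 (adjusted p = 0.13), passed without WT day 2 replicate 2 (0.036).

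The genotypes were then compared on the same day, which asks where the course in D6-deficient skin departs from that in WT skin. The differences lay on day 2, where 6 of the 16 probe sets were higher in D6-deficient skin (2.46% of all probe sets tested): the 4 of Msr1, Cd14 and Cd68. On day 0 2 were lower (0.855% of all), Cd68 and 1 of 3 probe sets of Csf1r, and on day 4 1 was higher (0.289% of all), Msr1 1425435_at. On day 1 limma called 0 of 16 in either direction (0.0555% of all), with 1 at an unadjusted p under 0.05, and on day 6 again 0 (0.125% of all), with 2 at an unadjusted p under 0.05. The methods' t-test, adjusted in the same way, called 0 of the 16 on any of the 5 days, and unadjusted it gave 7, 1, 8, 4 and 0 at a p under 0.05 on days 0, 1, 2, 4 and 6. Over all days 1 probe set was higher (2.29% of all), again Msr1 1425435_at, by 0.72 (SE 0.11, adjusted p = 1.0e-04).

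On day 2 Cd14 was 1.62 higher in D6-deficient skin (SE 0.32, 3.06-fold, adjusted p = 0.0023), and its 3 arrays there, from 10.83 to 11.46, lay above the WT arrays, from 9.05 to 10.35. Msr1 was higher by 1.01 on the brightest probe set (SE 0.24, adjusted p = 0.014) and by 1.22, 0.97 and 2.06 on the others (adjusted p = 9.7e-04, 0.0044 and 3.6e-06), and the arrays did not overlap on any of the 4. Cd68 was 0.82 higher (SE 0.20, 1.77-fold, adjusted p = 0.017), with 11.62 to 11.72 in D6-deficient and 10.74 to 10.98 in WT skin. The Cd68 call was lost without WT day 2 replicate 1 (adjusted p = 0.065) or 3 (0.078) or without D6-deficient day 2 replicate 2 (0.079) or 3 (0.056), and that of the brightest Msr1 probe set without WT day 2 replicate 3 (0.076) or D6-deficient day 2 replicate 1 (0.065). Chi3l3 was 1.46 higher on the probe set that names it alone, where 9.18 to 10.12 in D6-deficient skin lay above 7.37 to 8.44 in WT skin (SE 0.50, adjusted p = 0.11), and -0.21 on the shared probe set (adjusted p = 0.92). Cd163 and Mrc1 gave -0.15 and 0.00 (SE 0.22 and 0.18, adjusted p = 0.83 and 1.00). Retnla gave -0.86 (SE 0.46, adjusted p = 0.38) and Nos2 0.02 (SE 0.14, adjusted p = 0.98).

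At day 0 Cd68 was 0.83 lower in D6-deficient skin (SE 0.20, adjusted p = 0.038), 9.33 to 9.62 against 10.19 to 10.33. Csf1r was 0.66 lower on 1423593_a_at (SE 0.15, adjusted p = 0.022), 9.51 to 9.87 against 10.25 to 10.52, and 0.31 and 0.51 lower in the means of its other probe sets (adjusted p = 0.28 and 0.099). In both the groups did not overlap. The Cd68 call was lost without any of the 3 WT arrays of day 0 (adjusted p = 0.10, 0.11 and 0.083) and without D6-deficient replicate 1 (0.15) or 3 (0.13), and the Csf1r call without WT replicate 2 (0.11) or D6-deficient replicate 1 (0.14) or 3 (0.077). All 16 probe sets had a mean below that of WT skin on day 0, with a median of -0.37 against -0.00 for all probe sets tested. Of the keratinocyte markers 4 of 14 probe sets were higher in D6-deficient skin at day 0 (28.6%, against 0.713% of all), Krt14 by 0.73 (adjusted p = 0.017). The summed keratinocyte level was 15.50–15.58 against 15.06–15.13 in WT skin. The part of this difference in skin composition was not tested. On day 4 Msr1 1425435_at was 1.32 higher in D6-deficient skin (SE 0.24, adjusted p = 0.0065), and Emr1 read 8.44 to 8.83 against 9.23 to 9.58 without a call (-0.71, adjusted p = 0.12; 0.039 without D6-deficient day 6 replicate 2).

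The study set each genotype against its own controls, and so the changes from day 0 were also compared, a measure that also takes in any difference at day 0. The change to day 2 was larger in D6-deficient skin on 7 of 16 probe sets (2.78% of all): Cd14 by 2.06 (SE 0.45, adjusted p = 0.0062), Cd68 by 1.65 (SE 0.29, adjusted p = 0.0011), Msr1 by 1.27, 1.29, 1.35 and 2.48, and Csf1r 1423593_a_at by 0.78 (SE 0.21, adjusted p = 0.026). For Cd68 and Csf1r the lower starting level at day 0 made up 0.83 and 0.66 of these. The Csf1r call was lost without WT day 0 replicate 2 (adjusted p = 0.078), WT day 2 replicate 1 (0.074), D6-deficient day 0 replicate 1 (0.084) or D6-deficient day 2 replicate 2 (0.056) or 3 (0.062), and that of the brightest Msr1 probe set without any 1 of 7 arrays, with an adjusted p of 0.050 to 0.075. To day 4 the change was larger on 1 probe set (0.192% of all), Msr1 1425435_at, by 1.74 (SE 0.34, adjusted p = 0.020; 0.057 without WT day 4 replicate 2, 0.059 without D6-deficient day 0 replicate 3). To day 1 limma called 0 of 16 (0.0194% of all) with 3 at an unadjusted p under 0.05, and to day 6 again 0 (0.0250% of all) with 3; the methods' t-test also called 0 after adjustment on both days.

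**Figure D4:**
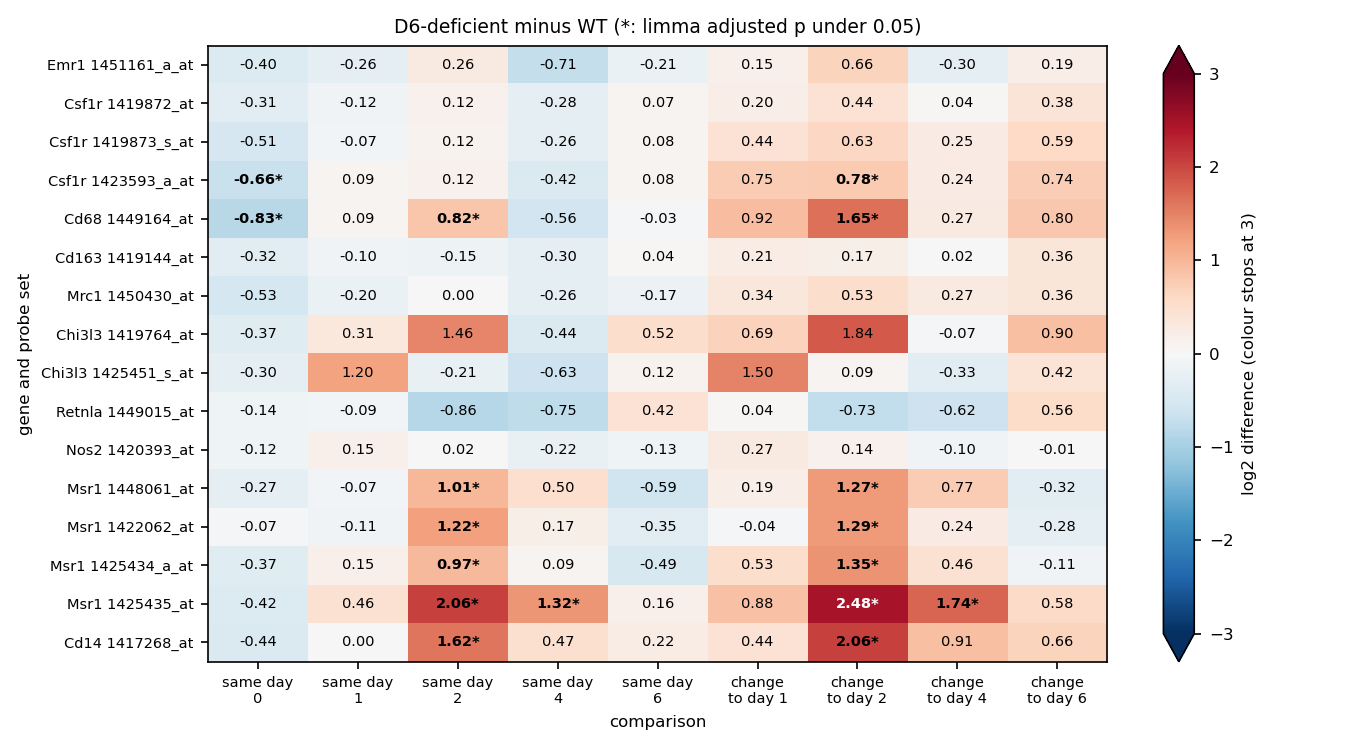
D6-deficient minus WT on the log2 scale for the 16 probe sets (rows), on the same day (first 5 columns) and as the difference between the changes from day 0 (last 4 columns); bold type with an asterisk marks an adjusted p under 0.05. The asterisks stand mainly in the day 2 columns, in the rows of Cd68, Msr1 and Cd14, and the rows of Cd163, Mrc1, Retnla and Nos2 have none.

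Other genes of the same pathways gave the setting of these changes. Of 60 probe sets of 31 further macrophage lineage genes, 29 were higher and 2 lower on day 2 in D6-deficient skin (48.3% and 3.33%, against 17.5% and 20.6% of all probe sets) and 3 higher and 10 lower in WT skin (5.0% and 16.7%, against 11.0% and 15.0%), with medians of 0.43 and -0.08 against -0.01 and -0.00 over all probe sets. The largest increases in D6-deficient skin were those of Fcgr1, the high-affinity IgG receptor (2.73, adjusted p = 8.1e-09), and Aif1 (2.11, adjusted p = 6.9e-11). Set directly against WT skin of day 2, 11 of the 60 were higher in D6-deficient skin (18.3%, against 2.46% of all) and 0 lower, Fcgr1 by 2.14 and Aif1 by 1.20. At day 0 8 were lower in D6-deficient skin and 0 higher (13.3% lower, against 0.855% of all). Among the lower were the resident macrophage genes Folr2 (-1.14, adjusted p = 0.018) and Stab1 (-0.97, adjusted p = 0.022). The summed level of the 31 genes on day 2 was 16.76–16.91 in D6-deficient and 16.41–16.48 in WT skin. On day 4 13 of the 60 were higher and 16 lower in WT skin (21.7% and 26.7%, against 17.3% and 21.8% of all probe sets), shares near the background, and 20 were higher and 12 lower in D6-deficient skin (33.3% and 20%, against 18.8% and 22.4%). Gpnmb, a lysosomal glycoprotein, fell most in both (-1.98 and -1.82), and Fcgr1 rose by 1.83 in each.

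Of 52 probe sets of 29 other genes linked to alternative activation, 19 were higher and 5 lower on day 4 in WT skin (36.5% and 9.62%, against 17.3% and 21.8% of all probe sets), and 18 and 8 in D6-deficient skin (34.6% and 15.4%, against 18.8% and 22.4%). The chemokines Ccl22 and Ccl24 rose most in both, by 3.64 and 3.06 in WT and by 2.90 and 2.74 in D6-deficient skin. Irf4, a transcription factor needed for part of the interleukin-4 response, fell most (-2.02 and -2.10). On day 2 in D6-deficient skin 14 were higher and 15 lower (26.9% and 28.8%, against 17.5% and 20.6%). Chi3l4 and Arg1, the arginase that competes with Nos2 for arginine, rose by 3.46 and 2.79, and the lectin Mgl2 and the factor Egr2 fell by 2.51 and 1.31. Between the genotypes on day 2, 3 were higher and 3 lower (5.77% each, against 2.46% and 1.99% of all): Arg1 was 3.05 higher in D6-deficient skin (adjusted p = 2.7e-04) and the beta-glucan receptor Clec7a 1.44 higher (adjusted p = 2.8e-05), whereas the lectins Cd209a (-4.52, adjusted p = 0.0016) and Mgl2 (-1.69, adjusted p = 0.0019) were lower. The medians of the list on that day, 0.04, and of all probe sets, -0.02, were close.

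Of 45 probe sets of 25 genes linked to classical activation, 38 were higher and 0 lower on day 4 in each genotype (84.4%, against 17.3% of all probe sets in WT and 18.8% in D6-deficient skin). Il6 and Fpr2 rose most, by 6.32 and 4.63 in WT and by 6.58 and 4.86 in D6-deficient skin. On day 2 11 were higher and 0 lower in WT (24.4%, against 11.0% of all), and 32 higher and 1 lower in D6-deficient skin (71.1% and 2.22%, against 17.5% and 20.6%). Directly compared, 18 were higher in D6-deficient skin and 0 lower (40.0%, against 2.46% of all; median 0.56). The interferon-induced chemokine Cxcl10 was 3.46 higher (adjusted p = 1.7e-09) and Fpr2 3.24 higher (adjusted p = 1.0e-05). Many cells besides macrophages express these genes.

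Of 42 probe sets of 26 genes of lipopolysaccharide sensing and scavenging, beside Cd14 and Msr1, 20 were higher and 4 lower on day 2 in D6-deficient skin (47.6% and 9.52%, against 17.5% and 20.6% of all probe sets), and 10 and 6 in WT skin (23.8% and 14.3%, against 11.0% and 15.0%). Directly compared, 9 were higher in D6-deficient skin and 0 lower (21.4%, against 2.46% of all; median 0.33), with Trem1, an amplifying receptor of myeloid cells, 2.07 higher (adjusted p = 1.2e-04) and the Toll-like receptor Tlr1 1.67 higher (adjusted p = 1.1e-04). Neutrophil markers moved with these genes too: 8 of 12 probe sets of that list were higher and 0 lower on day 2 when D6-deficient skin was set against WT skin (66.7%, against 2.46% of all), led by Ngp (4.82) and Ltf (3.82), components of neutrophil granules. Their summed level, to which S100a8 and S100a9 add most, overlapped: 15.65–15.76 in D6-deficient and 15.23–15.66 in WT skin. Of 9 monocyte probe sets 4 were higher and 0 lower (44.4% higher, against 2.46% of all), with Plac8 1.47 higher. Of 19 probe sets of dendritic and Langerhans cells 0 were higher and 2 lower on day 2 in D6-deficient than in WT skin, Cd209a and Cd207 (-2.38, adjusted p = 4.1e-04), where 10.5% compares with 1.99% of all, and on day 4 10 of the 19 were lower than on day 0 in WT (52.6%, against 21.8% of all) and 11 in D6-deficient skin (57.9%, against 22.4%), with 2 and 3 higher. The part of each cell type in the changes of Cd14, Msr1, Cd68, Emr1 and Csf1r was not tested.

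The genes most like each member over the 10 group means, among 17762 named genes, were looked for as a description. Cd14 went with Fyb, Tlr6 and Tlr1 (r = 0.992, 0.992 and 0.990), Chi3l3 with Ripk3 and 2010204K13Rik (0.989 and 0.988) and Cd68 with Tyrobp, Cd37 and Renbp (0.984, 0.976 and 0.974). Msr1 went with Picalm, Gpr97 and Apold1 (0.980, 0.980 and 0.979), Mrc1 with Ap2a2, Dnajc12 and Rab3il1 (0.988, 0.986 and 0.975) and Cd163 with Ms4a18, Cxcl13 and Clcn5 (0.982, 0.968 and 0.965). For Csf1r they were Lmo2, Bmf and Klf12 (0.981, 0.977 and 0.963), for Emr1 its relative Emr4 at 0.947 between Rgs10 (0.969) and Mmp14 (0.942), for Nos2 Apoa2, Ubqlnl and 4921507H08Rik (0.971, 0.970 and 0.962), and for Retnla Eml6, Clec10a and Mfhas1 (0.902, 0.895 and 0.890). Among the members themselves Msr1 and Cd14 were at r = 0.92 and Cd68 and Chi3l3 at 0.90, whereas Retnla was between -0.53 and 0.59 with the other 9. All of these rest on 10 means of the same arrays.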

How the data were processed

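RNA of whole back skin was hybridized to Affymetrix whole-genome mouse arrays. The authors background-corrected, quantile-normalized and summarized the probes by RMA in GeneSpring GX, and deposited the values as linear intensities, before the division by controls that the methods describe. Their log2 was used here. The 64 control probe sets were set aside, and of 45037 others the 20% with the lowest mean (9008) were left out, as in the methods. Quantile normalization assumes that arrays share 1 distribution, so a change of most genes in 1 direction would be taken out of these values. RMA also compresses changes near background. A second deposited text holds a sample sheet without values and was not used, so no fit to the authors' control-normalized values was made.

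With limma 3.58.1 (lmFit, eBayes; R 4.3.3), 10 group means were estimated from the 30 arrays together, with Benjamini-Hochberg adjustment over the 36029 probe sets of a contrast and a threshold of 0.05. The methods give unpaired t tests and a threshold of 3-fold, which were alternatives beside other filters, scalings, fits and the omission of each array. The fit was tested on simulated data. Figures were drawn with Python 3.11.15 and matplotlib 3.10.9. Groups came from the labels.

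Values are quoted from the brightest probe set of a gene, one that names the gene alone before a shared one, and disagreeing probe sets are given. From lists of further genes counts are given and at most the 2 largest increases and 2 largest decreases past the threshold, with the likeness of 3 named genes for each member, of which 1 for Chi3l3 is not reported here. S100a8 and S100a9 were named after their values were seen. The members and lists were chosen with earlier results of these data known. List symbols not matched on the array stayed out of the counts.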

Additional observations from a re-analysis of the deposited data

Results flagged for a closer look

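The change from day 0 differed between the genotypes on 8 occasions by the test of the difference itself, all of them larger in D6-deficient skin. On day 2 the difference on the log2 scale was 2.06 for Cd14, 1.65 for Cd68, 0.78 for Csf1r (1423593_a_at), and for Msr1 1.27 (1448061_at), 1.29 (1422062_at), 1.35 (1425434_a_at) and 2.48 (1425435_at). On day 4 it was 1.74 for Msr1 (1425435_at). Groups of 3 arrays are too small for a check of single outlying arrays.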

How the results depend on the processing

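Summed over days, limma called 33 of 64 differences of the member probe sets from day 0 in WT, 34 of 64 in D6-deficient skin, 9 of 80 between genotypes on the same day and 8 of 64 in the change from day 0. The methods' t-test gave 20, 26, 0 and 7. For the change from day 0 this t-test took the day 0 means as fixed, so the spread of the control arrays did not enter. In the change to day 2 it did not call Cd14, which limma called, and it called Csf1r 1419872_at, which limma did not. An added 3-fold threshold left 10, 18, 2 and 4, a rule that keeps a subset by construction. Averaging the probe sets that carry the same symbol, with the shared Chi3l3 probe set kept as its own entry, gave 4 and 4 for the last pair of counts. Without 1 array the counts ran from 26 to 34, 30 to 37, 7 to 10 and 6 to 8. Other filters, scalings and fits kept each count within 1.5 times. No call reversed its direction, while values without a call could change sign when 1 array was left out. Of 252 single results, on the quoted probe sets and those that passed between genotypes, 73 passed. Of these, 20 kept their call under all alternatives run, the 3-fold rule included. Same-numbered arrays did not deviate together (r from -0.35 to 0.48, median -0.0097), 10 of 30 arrays correlated best with their own number, and with the replicate block the counts were 33, 32, 9 and 8. The array set as a covariate gave 32, 32, 9 and 8. The values of Nos2 and of Msr1 1425435_at lie low on these arrays, where RMA intensities compress changes, and 3 arrays a group limit what could be called. The cause of each change in count was not tested.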

Other observations

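Lists of other cells were counted in the same way, and some of their shares lay near those of all probe sets. Of 4 eosinophil probe sets 4 were higher on day 4 in WT skin (100%, against 17.3% of all), led by Siglec5 (2.46, adjusted p = 6.6e-04) and Prg2 (1.65, adjusted p = 0.0023). In D6-deficient skin 1 was higher (25%, against 18.8%), Ccr3 (0.79, adjusted p = 0.047). Between the genotypes limma called 0 of these 4 on day 4, with 3 at an unadjusted p under 0.05, and 0 in the change to day 4, with 2. Of 10 mast cell probe sets 7 were higher on day 2 in D6-deficient skin (70%, against 17.5% of all) and 1 was higher in WT skin (10%, against 11.0%). Both counts include the IgE receptor chain Fcer1a. Directly between the genotypes limma called 0 of the 10 on day 2, with 1 at an unadjusted p under 0.05, and 0 in the change to day 2, with 3. The summed mast cell level on that day was 12.87–13.30 in D6-deficient and 12.65–12.88 in WT skin. Of 8 lymphatic probe sets 1 was higher and 2 lower on day 4 in WT, 2 higher and 1 lower in the other genotype, with Pdpn at 1.83 and 2.39. Of 12 fibroblast probe sets 4 were lower and 2 higher on day 4 in WT (33.3% and 16.7%, against 21.8% and 17.3% of all). In D6-deficient skin 5 were lower and 3 higher (41.7% and 25%, against 22.4% and 18.8%). Col1a1 gave -1.02 in WT and -1.52 in D6-deficient skin. Of 14 keratinocyte probe sets 4 were higher and 2 lower on day 4 in WT (28.6% and 14.3%, against 17.3% and 21.8% of all). In D6-deficient skin 0 were higher and 7 lower (0% and 50%, against 18.8% and 22.4%). The basal keratin Krt14 rose from day 0 to day 4 in WT (1.10, adjusted p = 5.6e-06), and the differentiation keratin Krt10 was lower on day 4 in both genotypes, with log2 differences of -4.27 (WT) and -5.52 (D6-deficient).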
